A study of Mus musculus with 15 samples.

Results

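The regions described here are 3 mouse loci that are highly active in red cell precursors: the α-globin locus (Hba), the β-globin locus (Hbb) and the locus of Slc25a37, which encodes a mitochondrial iron importer. Each lies on a chromosome of its own, and the values are the reads that each locus's captured promoters gave at the other 2 loci. The loci were taken as mm9 chr11:32080071-32320310 for Hba, chr7:110929928-111050000 for Hbb and chr14:69859913-69959889 for Slc25a37, snapped to DpnII fragments. They hold 1031 of the 1537885 fragments listed in the tables, and 992 of these lie outside the captured zones, defined as fragments within 2 kb of a captured promoter. Over the 15 libraries, 2174 of 3313135 reads on other chromosomes lay at one of the other loci, a share of 0.0656%. Across the viewpoints this share was 0.0537% from Hba, 0.0856% from Hbb and 0.0579% from Slc25a37.

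The assay was NG Capture-C, in which DpnII-cut, ligated chromatin is enriched with oligonucleotides for chosen promoters and the partner fragments are counted. The erythroid cells came from E12.5 fetal livers, with 5 to 7 days of expansion in culture and then 18 h of differentiation. The mice were control animals (3 libraries), animals with regulatory elements R1 and R2 of the α-globin super-enhancer deleted together (R1R2_KO, 3 libraries), and animals with R2 and R3 deleted together (R2R3_KO, 3 libraries). Single deletions of R1, R2, R3, Rm and R4 gave 1 library each, and mouse embryonic stem (ES) cells, which do not express globin, gave 1. The labels give the same hybrid strain of C57Bl6 and CBA parents for the fetal liver samples. They name the libraries of the replicated groups as biological replicates without saying which litter or culture each came from. The labels' growth text for the ES sample is that of the fetal liver cultures, so the culture of the ES cells is unstated here.

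The α-globin and β-globin genes encode the paired subunits of haemoglobin, and each cluster is driven in erythroid cells by distant elements, the super-enhancer with its elements R1, R2, R3, Rm and R4 upstream of the α genes and the locus control region upstream of the β genes. Within a locus, these elements loop to the active promoters in cells that make haemoglobin. Reads on other chromosomes made up 28.01% to 44.5% of a viewpoint's reads in the replicated libraries and 16.31% to 49.8% in the unreplicated ones. Many such reads can come from random ligation of unrelated fragments. A locus is therefore read here against windows of its own size elsewhere on its chromosome.

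The captured promoters themselves are the anchors of every value. The upstream 250 bases of 3 of them, in GRCm38.p6 from RefSeq, are shown because the α copies and β copies differ in how far their sequences can be told apart. Capitals mark GATC (the DpnII site), GATAA (a core bound by GATA factors), CCAAT (also as ATTGG, its other strand) and ATATAA.
Hba-a1, chr11:32283422-32283671, plus strand: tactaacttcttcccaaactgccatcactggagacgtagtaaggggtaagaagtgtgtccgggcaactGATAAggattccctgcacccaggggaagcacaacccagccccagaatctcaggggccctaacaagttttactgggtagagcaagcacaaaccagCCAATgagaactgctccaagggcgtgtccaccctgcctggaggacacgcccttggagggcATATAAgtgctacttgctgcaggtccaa
Hbb-bs, chr7:103827929-103828178, minus strand: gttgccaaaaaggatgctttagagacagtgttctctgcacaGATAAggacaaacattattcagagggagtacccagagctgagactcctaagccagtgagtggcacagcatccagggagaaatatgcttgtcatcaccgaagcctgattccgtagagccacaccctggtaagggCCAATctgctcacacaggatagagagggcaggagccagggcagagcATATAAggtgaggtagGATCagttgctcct
Hbb-bt, chr7:103813924-103814173, minus strand: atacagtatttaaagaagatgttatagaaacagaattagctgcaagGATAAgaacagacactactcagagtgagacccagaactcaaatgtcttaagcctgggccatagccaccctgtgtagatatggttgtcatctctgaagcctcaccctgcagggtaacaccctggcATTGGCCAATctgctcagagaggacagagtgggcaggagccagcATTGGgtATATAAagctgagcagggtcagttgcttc
The promoter of the second α gene, Hba-a2, shares a run of 247 bases with that of Hba-a1, so reads in that stretch cannot be assigned to 1 copy by sequence. The longest run shared by the promoters of the adult β genes, Hbb-bs and Hbb-bt in the reference strain, was 14 bases. Of the 4 motifs, searched on both strands, GATC was found only in the Hbb-bs window, 14 to 11 bases before its start. In all 32851 promoter windows of the same length, GATC was found in 41.9%, CCAAT in 33.8%, GATAA in 22.6% and ATATAA in 9.1%. Of 11 genes of the loci that were looked up, 8 had an entry.

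The tables leave gaps at the captured promoters: 2 at Hba (chr11:32182317-32184781 and chr11:32194990-32197598, mm9), 2 at Hbb (chr7:110961283-110963273 and chr7:110975292-110977138) and 1 at Slc25a37 (chr14:69902161-69904393). No viewpoint's tables list a fragment inside any gap, so a ligation of one captured promoter to another is not analysed here. Just outside the gaps, the captured zones differed between pairs and between sets of libraries. In the 9 replicated libraries, the read density in the zones, over that of the rest of the locus, was 1.71 for Hbb seen from Hba (12 reads), 1.35 for Hba seen from Hbb (6 reads) and 1.67 for Slc25a37 seen from Hbb (4 reads). It was 0.3 for Slc25a37 seen from Hba and 1.11 for Hba seen from Slc25a37 (1 read each), and Hbb seen from Slc25a37 had 0 reads there. Over all 15 libraries, most reads of which are from the unreplicated ones, it was 2.4 for Hba seen from Hbb and 0.217 to 1.04 for the other pairs. Counted once per fragment and library, the density over all 15 was above that of the rest in 5 of the 6 pairs (1.1 to 2.94) and 0.342 for Hbb seen from Slc25a37. All values below leave the zones out.

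Libraries differed in depth and in how many fragments they had in common. The 9 replicated libraries had 20734 to 53777 reads on other chromosomes from Hba, 17090 to 42790 from Hbb and 6123 to 18172 from Slc25a37. The 6 unreplicated libraries had 120781 to 311740, 46670 to 234209 and 33920 to 83240. Reads per fragment with a read ran from 1.03 to 1.5 in the former and from 1.75 to 2.96 in the latter, so the deeper libraries counted some fragments many times. The tables carry no molecular identifiers, so counting intervals cover counting error only.

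Control libraries shared about as many fragments with R1R2_KO libraries as with each other, and ES cells shared them with fetal liver libraries, while R2R3_KO libraries shared more among themselves than with the other replicated groups. At the Hba viewpoint, control libraries shared a median of 4.53% of the smaller library's fragments on other chromosomes with each other and 4.49% with R1R2_KO libraries, while R2R3_KO libraries shared 1.61% with either and 3.69% among themselves. ES cells shared a median of 18.5% with a single-deletion library, against 15.5% between single-deletion libraries. At the Hbb viewpoint the values in the same order were 3.8%, 4.01%, 1.25%, 2.89%, 14.2% and 11.4%, and at Slc25a37 they were 3.14%, 2.77%, 0.586%, 2.28%, 12.4% and 10.5%. These shares rise with depth, but the replicated groups had overlapping depths. The column names number R1R2_KO 1 to 3 and control 4 to 6, start again at 1 for R2R3_KO, and give the single deletions and ES cells numbers from 1 to 7. The shared fragments thus went with this numbering, and the sources used here do not say what the numbers stand for. R2R3_KO against either other group therefore cannot be told apart from a difference between these sets of libraries, and the excess over windows and the differences between groups are given with and without shared fragments. The shares within a locus are given with them.

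**Figure D1:**
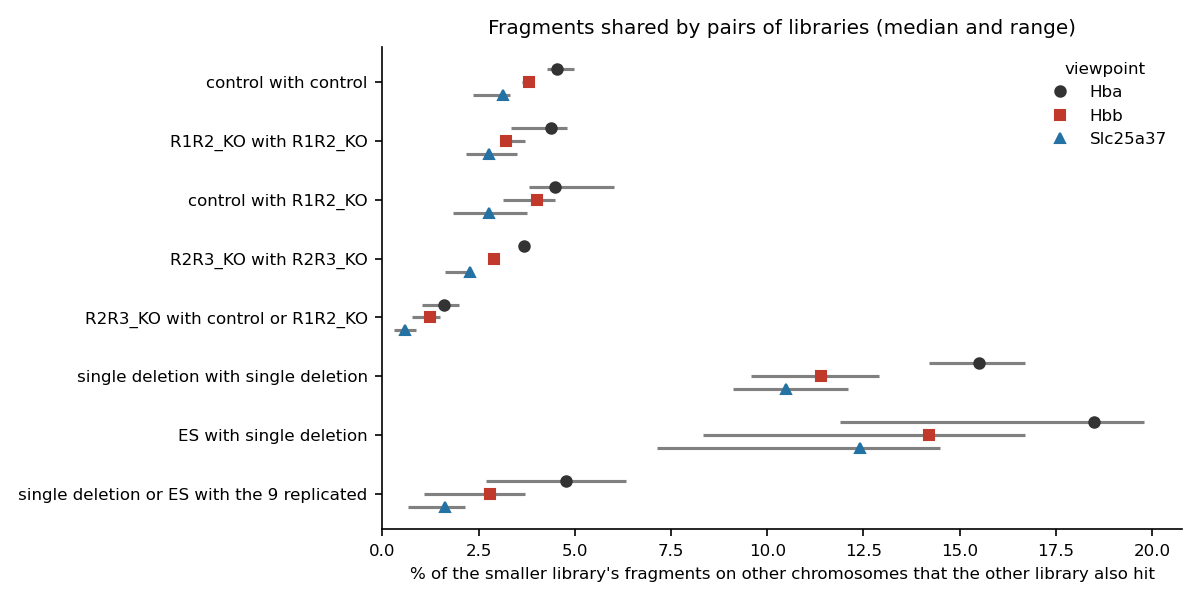
Percent of the smaller library's fragments on other chromosomes that the other library of a pair also hit (x axis), for 8 kinds of library pair (y axis) and the 3 viewpoints (marker shapes). Markers are medians and grey lines the range over pairs. ES cells share as many fragments with single-deletion libraries as those do with each other, and R2R3_KO libraries share the fewest with control and R1R2_KO.

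In control erythroid cells, the other loci carried several times the reads of a same-size window on their chromosome. Seen from Hba, Hbb took 10, 14 and 25 reads in the 3 control libraries, which is 18.6, 35.6 and 79.1 reads per 100000 on other chromosomes, where the mean of the 1181 other windows of 120 kb was 5.61. The fold over the mean window was 8.0 ± 5.73 (SD, n = 3), and the control libraries spread widely, with the highest more than the other two together. Seen from Hba, Slc25a37 took 9, 12 and 11 reads, or 16.7, 30.5 and 34.8 per 100000, a fold of 7.30 ± 2.38 (SD, n = 3). Seen from Hbb, Hba took 21, 12 and 29 reads, or 49.1, 34.8 and 98.8 per 100000, a fold of 4.62 ± 2.25 (SD, n = 3). Seen from Hbb, Slc25a37 took 12, 9 and 8 reads, and its rates of 28.0, 26.1 and 27.3 were the most even of the 6, with a fold of 7.59 ± 0.222 (SD, n = 3).

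The Slc25a37 viewpoint, the shallowest, gave few reads. Seen from it, Hba took 3, 3 and 6 control reads, or 16.5, 31.5 and 70.5 per 100000, a fold of 2.76 ± 1.78 (SD, n = 3). Hbb took 3, 6 and 1, or 16.5, 63.0 and 11.8 per 100000, a fold of 5.84 ± 5.60 (SD, n = 3). With 1 to 6 reads a library, the exact Poisson intervals of single libraries were wide, as in the control library with 1 read, where the interval ran from 0.297 to 65.5 per 100000.

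By mean control rate, Hbb ranked 8 of 1182 windows from Hba, Slc25a37 ranked 8 of 1207 from Hba and 6 of 1207 from Hbb, and Hba ranked 2 of 497 from Hbb. From Slc25a37, Hbb ranked 16 of 1182 and Hba 33 of 497. The loci were therefore high but were not the highest windows. Over the 9 replicated libraries, chr7:16850000-16969999 took 266 reads from Hba against 79 at Hbb, and chr14:21460000-21559999 took 105 against 75 at Slc25a37. From Hbb, chr11:102160000-102399999 took 191 against 108 at Hba, and chr14:71060000-71159999 took 88 against 54 at Slc25a37. From Slc25a37, chr11:100960000-101199999 took 64 against 22 at Hba, and chr7:87290000-87409999 took 46 against 26 at Hbb. Each of these windows had reads in 9 of 9 libraries, and the window on chr14 that led from Hbb lies 1.2 Mb from the Slc25a37 locus.

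In 5 of the 6 pairs, the windows on both sides of the locus were far below it. The windows directly next to Hbb had a mean control rate of 6.18 from Hba, and those next to Slc25a37 had 2.63 from Hba and 3.10 from Hbb. Those next to Hba had 10.5 from Hbb, against 60.9 at Hba itself. From Slc25a37, the windows next to Hbb had 5.54, against 30.4 at Hbb itself. Hba seen from Slc25a37 was the exception, with 33.6 in the window on one side and 1.83 in that on the other, against 39.5 at Hba itself. Single windows further out were raised as well: the window 2 places from Hba had 32.28 reads per 100000 from Hbb and 48.0 from Slc25a37.

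**Figure D2:**
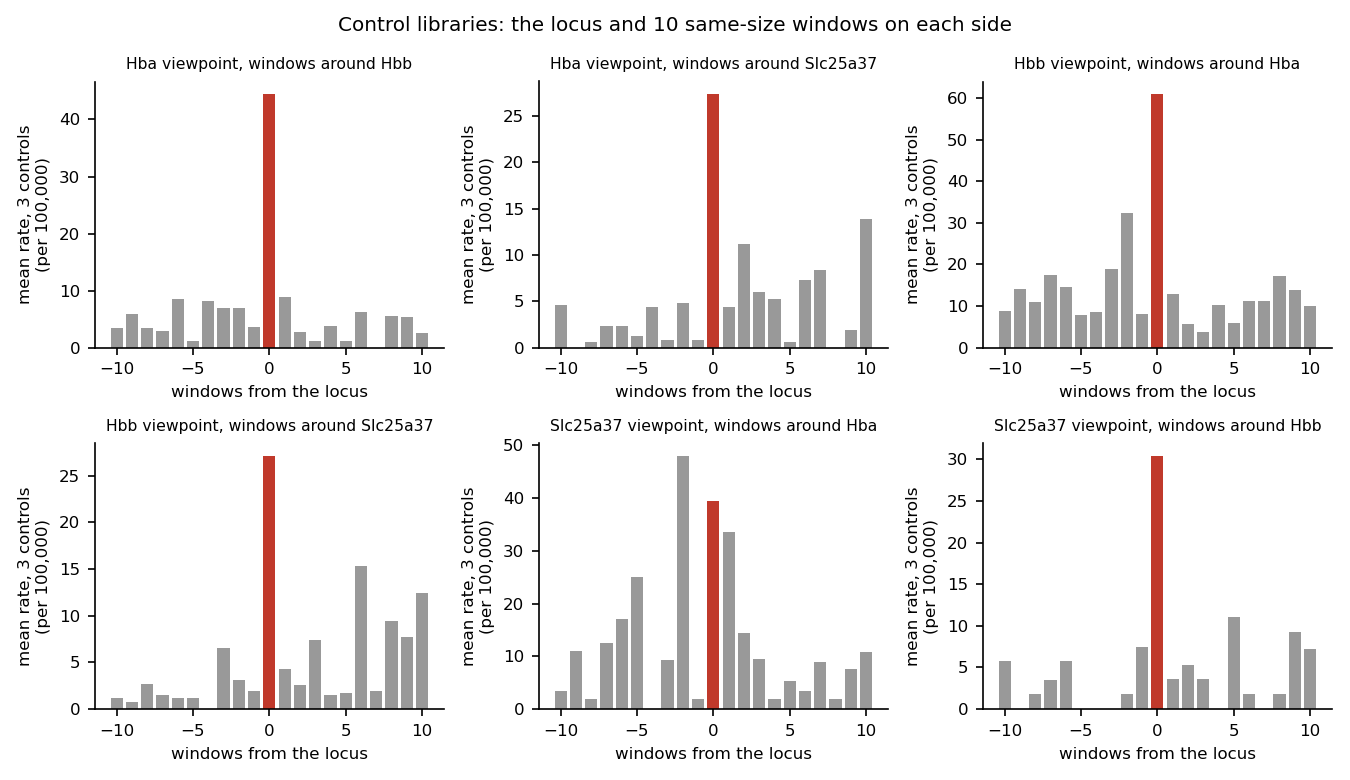
Mean rate over the 3 control libraries (y axis, reads per 100000 on other chromosomes) at each locus (red bar) and in the 10 windows of the same size on each side (grey bars; x axis, distance in windows). The red bar is the highest of its panel except for Hba seen from Slc25a37, where a window 2 places away is higher.

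Over all 9 replicated libraries, 5 of the 6 directed pairs lay above the mean window by an exact two-sided sign-flip permutation test over libraries, adjusted by Benjamini-Hochberg over the 6 pairs. Hbb and Slc25a37 seen from Hba, Slc25a37 seen from Hbb and Hbb seen from Slc25a37 were above it in 9 of 9 libraries (exact permutation p = 0.00391, the smallest that 9 libraries can give, adjusted p = 0.00586). Their mean rates were 4.70, 6.45, 5.81 and 5.77 times the mean window. Hba seen from Hbb was above it in 7 of 9 libraries, at 3.25 times the mean window (exact permutation p = 0.0234, adjusted 0.0281). Hba seen from Slc25a37 was above it in 5 of 9 libraries at 1.73 times the mean window, and did not pass (exact permutation p = 0.215). The test measures how steady the difference was over libraries, not how unusual a locus is among windows. By mean rate over the 9 libraries, Hbb ranked 29 of 1182 windows from Hba and Slc25a37 8 of 1207. From Hbb, Hba ranked 7 of 497 and Slc25a37 6 of 1207. From Slc25a37, Hba ranked 92 of 497 and Hbb 18 of 1182.

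The loci hold more DpnII fragments than the mean window, by 1.79 times at Hbb, 2.37 times at Slc25a37 and 1.59 times at Hba. Per listed fragment, every pair was closer to the mean window. Hbb seen from Hba was 2.63 times the mean window (exact permutation p = 0.0234, adjusted 0.0352). Slc25a37 was 2.73 times seen from Hba and 2.46 times seen from Hbb, and Hbb seen from Slc25a37 was 3.23 times (exact permutation test, adjusted p = 0.0234 each). Hba seen from Hbb was 2.04 times and no longer passed (exact permutation p = 0.0898, adjusted 0.108), and Hba seen from Slc25a37 was 1.09 times (exact permutation p = 0.812). In 5 of the 6 pairs, recurrent fragments were a larger share than over all other chromosomes. Of the 41 Hbb fragments hit from Hba in the 9 libraries, 29.3% were hit in 2 or more, against 8.09% over all fragments on other chromosomes. For Slc25a37 seen from Hba the share was 16.7%, and for Hba and Slc25a37 seen from Hbb it was 17.5% and 21.2%, against 6.61%. From the Slc25a37 viewpoint it was 5% at Hba and 16.7% at Hbb, against 5.09%. These shares were not compared at equal reads per listed fragment, which were higher at the loci.

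Leaving out fragments hit in 2 or more of the 9 libraries, which also takes out any fragment that a locus contacts often, separated the pairs. Hbb seen from Hba fell from a difference of 20.7 to 10.9 reads per 100000 over the mean window, a ratio of 2.97, and no longer passed (exact permutation test, adjusted p = 0.164). Hba seen from Hbb kept a ratio of 2.75 and no longer passed (exact permutation test, adjusted p = 0.0879). The 3 pairs with Slc25a37 that had passed did so again (exact permutation test, adjusted p = 0.0234 each), with ratios of 4.94 from Hba, 4.57 from Hbb and 4.40 for Hbb seen from Slc25a37. Hba seen from Hbb also failed to pass when any 1 control or R2R3_KO library was left out (exact permutation test, adjusted p = 0.0563), with a difference of 21.5 to 30.2 reads per 100000 over these 6 omissions. It passed without any 1 R1R2_KO library.

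**Figure D3:**
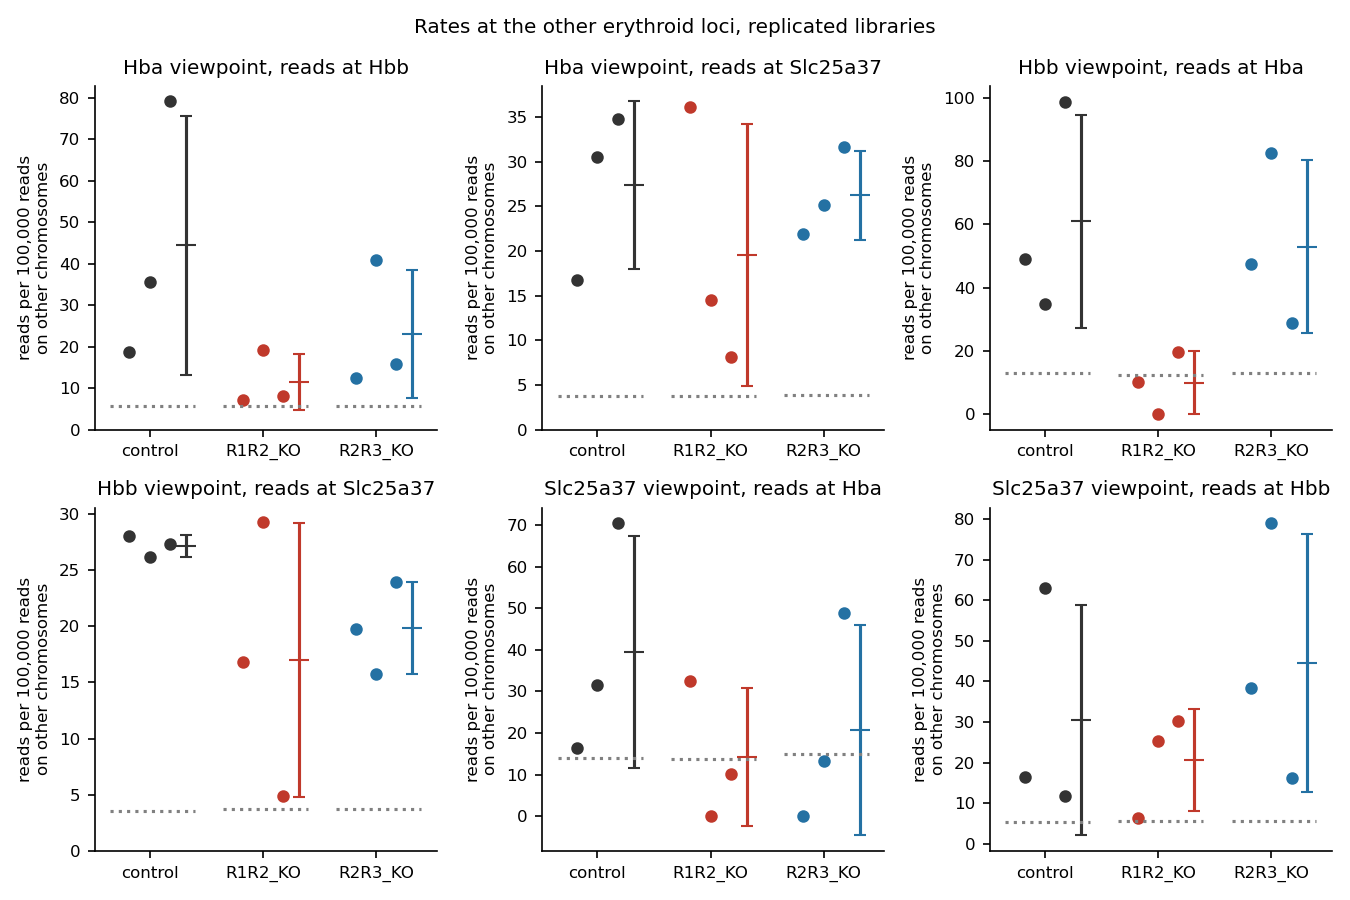
Reads per 100000 reads on other chromosomes at each locus (y axis) for the 9 replicated libraries by group (x axis), 1 panel for each viewpoint and target locus. Points are libraries, bars with caps the group mean and SD, and dotted lines the mean of the same-size windows. In the panel of Hba seen from Hbb, the 3 R1R2_KO libraries lie below the 3 control and the 3 R2R3_KO libraries.

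Deletion of R1 and R2 went with the lowest values between the globin loci, though no test over all windows called them. In R1R2_KO, the Hbb promoters gave 3, 0 and 4 reads at Hba, or 10.1, 0 and 19.7 per 100000, with an upper exact Poisson bound of 21.6 for the library with 0 reads. The means were 9.94 ± 9.86 in R1R2_KO and 60.9 ± 33.6 in control (SD, n = 3 each), and the groups did not overlap (exact two-sided permutation test, p = 0.1, the smallest that 3 against 3 can give). Among the 901 windows tested from Hbb, 6.66% were lower in R1R2_KO without overlap. The edgeR quasi-likelihood fit over those windows gave a log2 change of −2.49 (SE 0.68), and Hba ranked 1 of the 901 by p (2.54e-04), with an adjusted p of 0.229 by edgeR and Benjamini-Hochberg. The mean window on that chromosome was 12.9 in control and 12.4 in R1R2_KO, so R1R2_KO stood at 0.794 ± 0.813 times its mean window and control at 4.62 ± 2.25.

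Seen from Hba, Hbb took 3, 4 and 2 reads in R1R2_KO, or 7.22, 19.3 and 8.14 per 100000. The means were 11.6 ± 6.72 in R1R2_KO and 44.4 ± 31.2 in control (SD, n = 3 each), and the groups overlapped by 1 library (exact two-sided permutation test, p = 0.2). Among the 1212 windows tested from Hba, 5.12% were lower in R1R2_KO without overlap. The edgeR log2 change was −1.96 (SE 0.62) with an adjusted p of 0.644, rank 3 of the 1212 windows by p. The change was −1.28 without control replicate 3, the library with most reads at Hbb, and −1.26 with each fragment counted once (edgeR adjusted p = 0.996 and 0.959). For Hba seen from Hbb it was −3.19 without R1R2_KO replicate 3 (edgeR adjusted p = 0.197). Both directions thus gave lower values in R1R2_KO, and neither was called.

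Falls were hard to call over the tested windows as a whole. In R1R2_KO against control, edgeR called 0% of the 1212 windows from Hba (53 at an unadjusted p under 0.05) and 0% of the 901 from Hbb (39 unadjusted). DESeq2 also called 0 in each, with 20 and 17 unadjusted. On simulated counts for that comparison, edgeR recovered 6.67% of simulated log2 changes of −4 from Hba and 18.2% from Hbb. It recovered 86% and 96% of changes of 4. The simulated windows were drawn from all tested windows, of which only 215 from Hba and 223 from Hbb had 30 or more reads. Hbb seen from Hba had 79 reads over the 9 libraries and Hba seen from Hbb 108, so recovery at the loci was not measured. The adjusted p for Hba seen from Hbb ran from 0.0938 to 0.998 over all alternatives and that for Hbb seen from Hba from 0.182 to 1.

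Summed over both directions, reads between the globin loci were 3.66, 4.03 and 9.30 times the mean windows in control, 0.953, 1.25 and 1.59 times in R1R2_KO and 3.20, 6.71 and 2.42 times in R2R3_KO. The R1R2_KO libraries lay below all others, with a mean fold of 1.27 ± 0.321 against 5.67 ± 3.16 in control and 4.11 ± 2.29 in R2R3_KO (SD, n = 3 each). The exact two-sided permutation p was 0.1 against either group. This sum was chosen after the values of single directions had been seen. The share of window pairs whose groups separated in this way was not computed. The R1R2_KO and control libraries shared as many fragments with each other as within a group, so this contrast lies within 1 set of the column numbers. Without fragments hit in 2 or more of the 9 libraries, the log2 changes were −3.07 for Hbb seen from Hba and −2.04 for Hba seen from Hbb (edgeR adjusted p = 0.931 and 0.997).

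Some of the control reads at Hba lay on the deleted elements. In the control libraries, the R1 fragments took 4, 0 and 1 reads from Hbb and the R2 fragments 1, 0 and 1, of 21, 12 and 29 reads at Hba. Without the fragments of the deleted elements, the log2 change of Hba seen from Hbb was −2.76 (edgeR adjusted p = 0.133). The labels held at the Hba viewpoint itself: reads at R1 were 956 to 981 per 100000 chromosome reads in control and 227 to 275 in R1R2_KO, and reads at R2 were 1660 to 2008 in control, 184 to 247 in R1R2_KO and 186 to 200 in R2R3_KO.

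The reads at a locus from its own promoters differed between libraries too: at Hbb they numbered 22482 to 29756 in control and 11578 to 12942 in R1R2_KO. Per 1000 reads that Hbb's own viewpoint took at Hbb, the Hba viewpoint gave 0.445, 0.495 and 0.84 reads in control, 0.232, 0.345 and 0.16 in R1R2_KO and 0.33, 1.12 and 0.456 in R2R3_KO. Per 1000 reads that Hba's own viewpoint took at Hba, the Hbb viewpoint gave 0.442, 0.252 and 0.601 in control, 0.0704, 0 and 0.163 in R1R2_KO and 0.406, 0.747 and 0.27 in R2R3_KO. On this scale the R1R2_KO libraries lay below the control libraries in both directions, but the share of windows doing so was not computed. The scale leaves out the depth of the giving viewpoint. From Hbb, that depth was 17090 to 29681 reads on other chromosomes in R1R2_KO and 29346 to 42790 in control. From Hba it was 20734 to 41577 in R1R2_KO and 31613 to 53777 in control. The scale was added after the data were seen and was not tested.

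For the pairs with Slc25a37, the log2 changes in R1R2_KO lay between −0.97 and −0.32. Seen from Hba, the Slc25a37 locus took 15, 3 and 2 reads, or 36.1, 14.5 and 8.14 per 100000, so 1 library was above all control libraries and the other two were below them (log2 change −0.32, SE 0.58). Seen from Hbb it took 5, 5 and 1 reads, or 16.8, 29.3 and 4.93 per 100000 (log2 change −0.70, SE 0.70). Seen from Slc25a37, Hba took 5, 0 and 1 reads (log2 change −0.97, SE 0.85) and Hbb took 1, 2 and 3 (log2 change −0.59, SE 0.84). For none of these was the edgeR adjusted p below 0.961. From Slc25a37 edgeR called 0% of 407 windows.

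In R2R3_KO, the rates between the globin loci overlapped those of control in both directions, and no pair was called. Seen from Hbb, Hba took 12, 21 and 6 reads, or 47.5, 82.7 and 28.7 per 100000 (log2 change against control −0.17, SE 0.54). Seen from Hba, Hbb took 4, 13 and 4 reads, or 12.49, 40.8 and 15.8 (log2 change −0.87, SE 0.55), and Slc25a37 took 7, 8 and 8 reads, or 21.9, 25.1 and 31.6 (log2 change −0.04, SE 0.57). The adjusted p was at least 0.967 for these pairs and for Slc25a37 seen from Hbb (edgeR), while edgeR called 0.0825% of the windows from Hba and 0% of those from Hbb and from Slc25a37. Seen from Hbb, Slc25a37 took 5, 4 and 5 reads, and its rates of 19.8, 15.8 and 23.9 did not overlap those of control (19.8 ± 4.08 against 27.1 ± 0.963, SD, n = 3 each; exact two-sided permutation test, p = 0.1; log2 change −0.46, SE 0.67). Of the 901 windows from Hbb, 5.99% were lower in R2R3_KO than in control without overlap, so this is near the background. Seen from Slc25a37, Hba took 0, 1 and 3 reads (log2 change −0.86, SE 0.94) and Hbb took 3, 6 and 1 (log2 change 0.67, SE 0.77; edgeR adjusted p = 0.928 for each).

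Without shared fragments, the log2 changes in R2R3_KO against control were −0.36 for Hba seen from Hbb, −0.79 for Hbb seen from Hba, −0.20 and −0.30 for Slc25a37 seen from Hba and Hbb, and −0.94 and 0.77 for Hba and Hbb seen from Slc25a37, and none was called (edgeR adjusted p at least 0.984).

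The double deletions were also set against each other. Seen from Hbb, Hba was higher in R2R3_KO than in R1R2_KO without overlap (exact two-sided permutation test, p = 0.1), as were 5.11% of the 901 windows tested. The log2 difference was 2.32 (SE 0.70), rank 1 by p among those windows (8.88e-04; edgeR adjusted p = 0.800). Hbb was higher by 1.10 (SE 0.67) seen from Hba and by 1.26 (SE 0.84) seen from Slc25a37, and neither was called (edgeR adjusted p = 0.813 and 0.933). Without shared fragments, the differences were 1.68 for Hba seen from Hbb, 2.28 for Hbb seen from Hba and 2.29 for Hbb seen from Slc25a37 (edgeR adjusted p = 0.970, 0.810 and 0.961). In this contrast edgeR called 0.0825% of the windows from Hba and 0% from the other viewpoints. Since R2R3_KO belongs to the set of libraries that shares the fewest fragments with the rest, the part of that set in these differences was not tested.

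Between the globin loci, reads were concentrated in the interval of the distant elements, where the target's own promoters also placed a large share of their reads. At Hbb seen from Hba, the control region (chr7:110994810-111023773, the interval with the locus control region) took 59.7% of the 484 reads of the 14 erythroid libraries on 27.5% of the length. The 95% exact binomial interval of 55.2 to 64.1 covers counting error only. It treats reads as independent, while the single deletions gave 405 of them at 3.12 reads per hit fragment. The share was 71.4% of 49 reads in control, 44.4% of 9 in R1R2_KO and 38.1% of 21 in R2R3_KO, all outside that interval. In the single deletions it was 59.8%. Hbb's own promoters placed 55.4% of their reads in the control region. The interval of the embryonic genes (chr7:110980132-110994809) took 26% of the reads on 13.9% of the length, and 17.9% of the own reads. The side beyond the control region took 3.51% on 24.7% of the length, and 5.9% of the own reads.

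The interval of the adult β genes was the exception. It took 6.2% of the reads from Hba on 15.5% of the length, with 14.9% of the own reads. The control libraries gave 0 of 49 reads there and the R1R2_KO libraries 0 of 9, while R2R3_KO gave 8 of 21, all in 1 library.

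At Hba seen from Hbb, the enhancer cluster (chr11:32139865-32169921, with the deleted elements) took 44.2% of 586 reads (interval 40.1 to 48.3) on 13.3% of the length. Hba's own promoters placed 36.5% of their reads there. The α-globin genes (chr11:32169922-32204979) took 26.8% on 9.19% of the length, against 37.4% of the own reads, and the long downstream side took 13.5% on 51.1%, against 10.4%. By group, the α-globin genes took 16 of 62 reads in control, 0 of 7 in R1R2_KO and 17 of 39 in R2R3_KO, and the enhancer cluster took 28, 2 and 15. Counted once per fragment and library, the enhancer cluster held 39.1% of the hits. That is below the interval of the read share but still above the cluster's share of the length.

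Of the 158 reads that the Slc25a37 promoter gave at Hba, 36.7% lay in the enhancer cluster, 24.7% on the downstream side and 24.1% at the α-globin genes. All 39 downstream reads came from single deletions. At Hbb its reads did not follow the own reads. The embryonic genes took 43.6% of 94 reads, against 17.9% of the own reads, and the control region 33%, against 55.4%. In the interval of the embryonic genes, chr7:110991221-110991652 alone held 19 reads over all 15 libraries, 8 of them in R3_KO and 2 in ES cells. Counted once per fragment and library, the embryonic genes held 45% of the erythroid hits. The control libraries gave 8 of 10 reads at the embryonic genes and 0 in the control region, while R2R3_KO gave 1 and 8 of 10. The Slc25a37 locus was divided only into the gene and its upstream part, so a narrower peak could not be seen. The upstream part (chr14:69906474-69959889) is 57.1% of the length and had 64.5% of the own reads. It took 58.1% of the reads from Hba and 70.3% of those from Hbb over the erythroid libraries. From Hba it took 81.2% in control, 80% in R1R2_KO, 82.6% in R2R3_KO and 50.6% in the single deletions. From Hbb these shares were 89.7%, 90.9%, 64.3% and 67.7%.

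**Figure D4:**
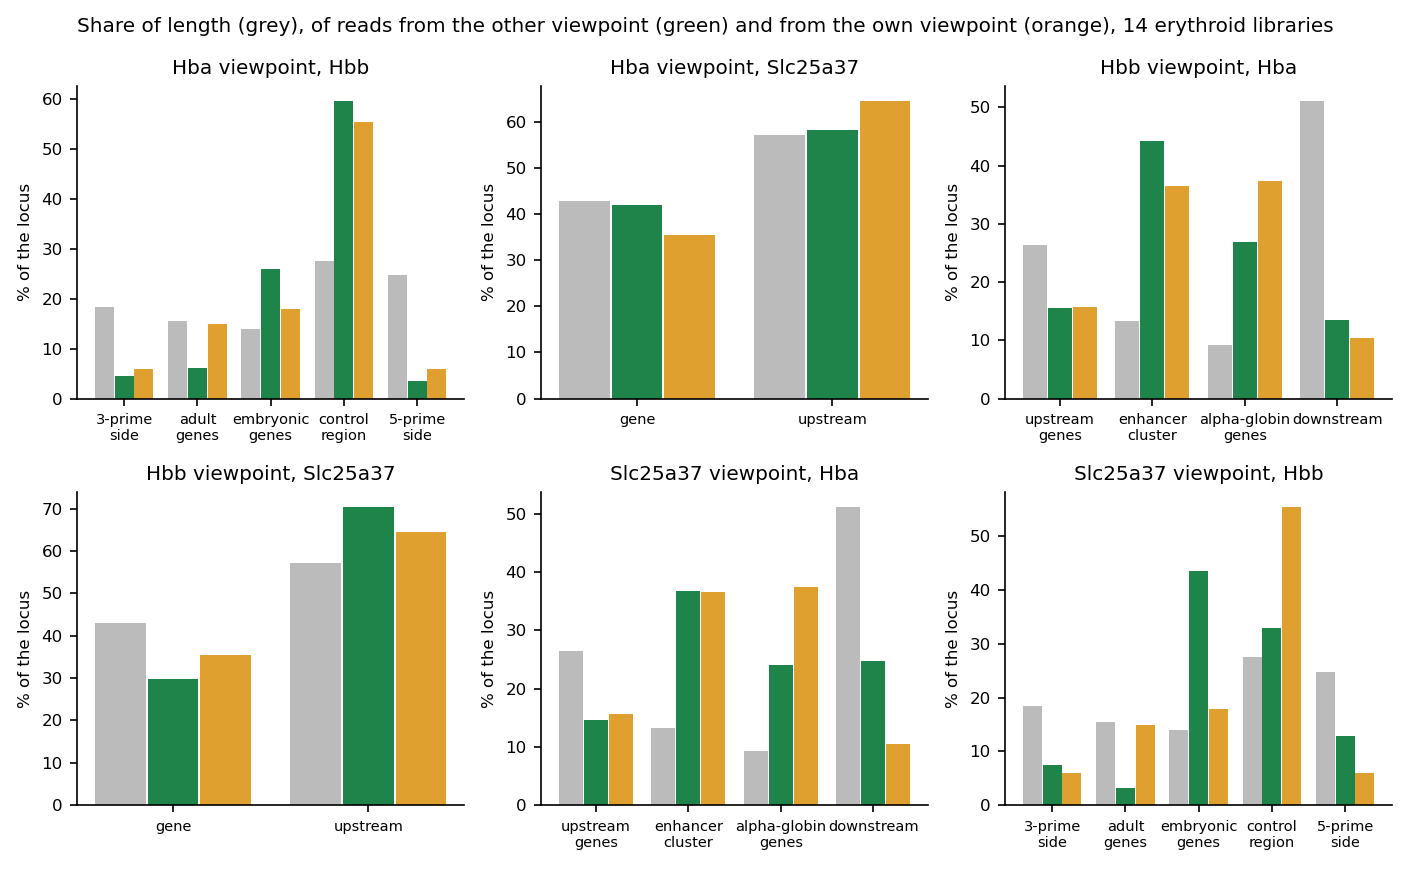
Percent of each target locus (y axis) in its named intervals (x axis), for the 14 erythroid libraries, outside captured zones. Grey bars are listed length, green bars reads from the other viewpoint and orange bars reads from the locus's own viewpoint. At Hbb seen from Hba and at Hba seen from Hbb, green and orange bars are both above grey at the control region (59.7% and 55.4% against 27.5%) and at the enhancer cluster (44.2% and 36.5% against 13.3%).

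Fragment by fragment, the reads from another viewpoint also went with those of the locus's own viewpoint. Over the 242 fragments of Hbb in the 14 erythroid libraries, reads from Hba and from Hbb's own promoters had a Pearson r of 0.576 and a Spearman rho of 0.547. Over the 525 fragments of Hba, reads from Hbb and own reads had r = 0.509 and rho = 0.487. For the pairs with Slc25a37, r ran from 0.216 to 0.221 and rho from 0.250 to 0.360. These pairs had fewer reads, 94 to 317 against 484 and 586. These are correlations across fragments of the same libraries, which share their fragment lengths and their depth, and neighbouring fragments are not independent. Captured own products are far more numerous, with 546085 reads at Hbb and 1321146 at Hba in these libraries, and the part of these products in the reads between loci was not tested.

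Single fragments held few reads. Over the 9 replicated libraries, the fragment of Hbb with most reads from Hba was chr7:111008142-111009073 with 6 reads in 2 libraries, followed by chr7:111009552-111009747 with 4 reads in 3 libraries and chr7:111012242-111012280 with 4 reads in 1 library. All 3 lie in the control region. At Hba seen from Hbb the leading fragments were chr11:32144385-32145278 with 5 reads in 2 libraries, chr11:32141284-32141861 with 4 in 1 and chr11:32174234-32174797 with 4 in 2. The first pair of these lie in the enhancer cluster and the last among the α-globin genes. At Slc25a37 the leading fragments were chr14:69925217-69925496 with 4 reads from Hba and chr14:69908849-69909869 with 4 reads from Hbb, the latter all in 1 library. From the Slc25a37 viewpoint they were chr7:110991221-110991652 with 4 reads and chr11:32139268-32139483 with 2. No library had more than 5 reads on a named fragment among the 9.

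The fragment chr7:110991221-110991652, of 432 bp in the interval of the embryonic genes, recurred most. It was hit in 9 of 15 libraries from Hba, with 43 reads, and in 8 of 15 from Slc25a37, with 19. From Hba its reads were 1 in each of 3 replicated libraries, 16 in R3_KO, 1 to 7 in the other single deletions and 6 in ES cells. Per 100000 reads on other chromosomes, it had 4.95 in ES cells and 5.52 in R3_KO, against 0.828 to 2.36 in the other 4 single deletions.

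The single deletions and ES cells, with 1 library each and in tables other than those of the controls, allow no test. Over all fragments, Hbb seen from Hba was 3.80 to 8.50 times the mean window in the 5 single deletions and 7.07 times in ES cells, which had 40 reads (33.0 per 100000, 95% exact Poisson interval 23.6 to 45.0). Hba seen from Hbb was 2.45 to 6.36 times in the single deletions and 4.54 times in ES cells, with 23 reads. By reads, the ES value thus lay inside the range of the single deletions in both directions between the globin loci. Counted once per fragment, ES cells were above all 5 single deletions in both. Per 100000 hit fragments on other chromosomes, Hbb seen from Hba had 35.3 in ES cells and 25.2 to 34.2 in the single deletions. Hba seen from Hbb had 78.7 and 43.5 to 61.1. The lowest single deletion for Hba seen from Hbb was R2_KO, with 29 reads (32.0 per 100000, interval 21.4 to 45.9), and the highest was R1_KO, with 121 reads (80.5, interval 66.8 to 96.2).

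At Slc25a37, ES cells were below each of the 5 single deletions by point value. Seen from Hbb the locus took 3 ES reads, 1.75 times the mean window, where the single deletions had 5.17 to 9.56 times. Seen from Hba it took 11 ES reads, 2.51 times, where the single deletions had 3.63 to 6.77 times. From Hbb, the exact Poisson interval of the ES rate, 1.33 to 18.8 per 100000, covered the rate of R1_KO (18.64). From Hba, the interval of 4.53 to 16.25 covered R1_KO (13.2) and Rm_KO (13.4). Seen from Slc25a37, Hba was 1.23 times the mean window in ES cells and 1.48 to 4.59 times in the single deletions. Hbb was 5.43 times in ES cells and 1.56 to 6.68 times in the single deletions. Counted once per fragment, Slc25a37 seen from Hba had 15.1 per 100000 hit fragments in ES cells and 16.0 to 24.7 in the single deletions. From Hbb it had 8.28 and 22.5 to 39.25. On this count, ES cells had 29.0 at Hba and 29.0 at Hbb seen from Slc25a37. The single deletions had 24.45 to 47.1 and 11.6 to 32.4, so ES cells lay inside both ranges.

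Most of the ES reads at Hbb lay in fragments that single-deletion libraries also hit. Of the 21 Hbb fragments that ES cells hit from Hba, 20 were also hit in a single-deletion library, and these held 39 of the 40 reads. Over all other chromosomes, 51.5% of the ES fragments from Hba were also in a single-deletion library. In R2_KO, 36 of 39 reads at Hbb and 27 of 29 reads at Hba lay in fragments shared with the other 5 unreplicated libraries. On fragments of 1 library only, Hbb seen from Hba was 0.323 times the mean window in ES cells, from 1 read, and 0.788 to 4.07 times in the single deletions. The ES value on all fragments therefore rests on shared fragments, and that on unshared ones on a single read.

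For the other pairs, the unshared fold in ES cells was 1.56 for Slc25a37 seen from Hba (single deletions 1.96 to 5.50) and 0 for Slc25a37 seen from Hbb (1.08 to 9.63), where 0 reads allow a rate of up to 13.6 per 100000 by the exact Poisson bound. It was 4.20 for Hba seen from Hbb (0.249 to 4.11), 0.982 for Hba seen from Slc25a37 (1.27 to 4.77) and 4.06 for Hbb seen from Slc25a37 (1.33 to 5.98). By point value, ES cells were thus below all 5 single deletions in 4 of the 6 pairs and above all 5 in 1, Hba seen from Hbb. The lower values rest on 1 and 4 ES reads for Hbb and Slc25a37 seen from Hba. They rest on 0 reads for Slc25a37 seen from Hbb and 3 for Hba seen from Slc25a37. In each of these pairs the exact Poisson interval of the ES rate covered the rate of at least 1 single deletion, so the ranks do not separate ES cells. The unshared ES reads at Hba from Hbb numbered 12.

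**Figure D5:**
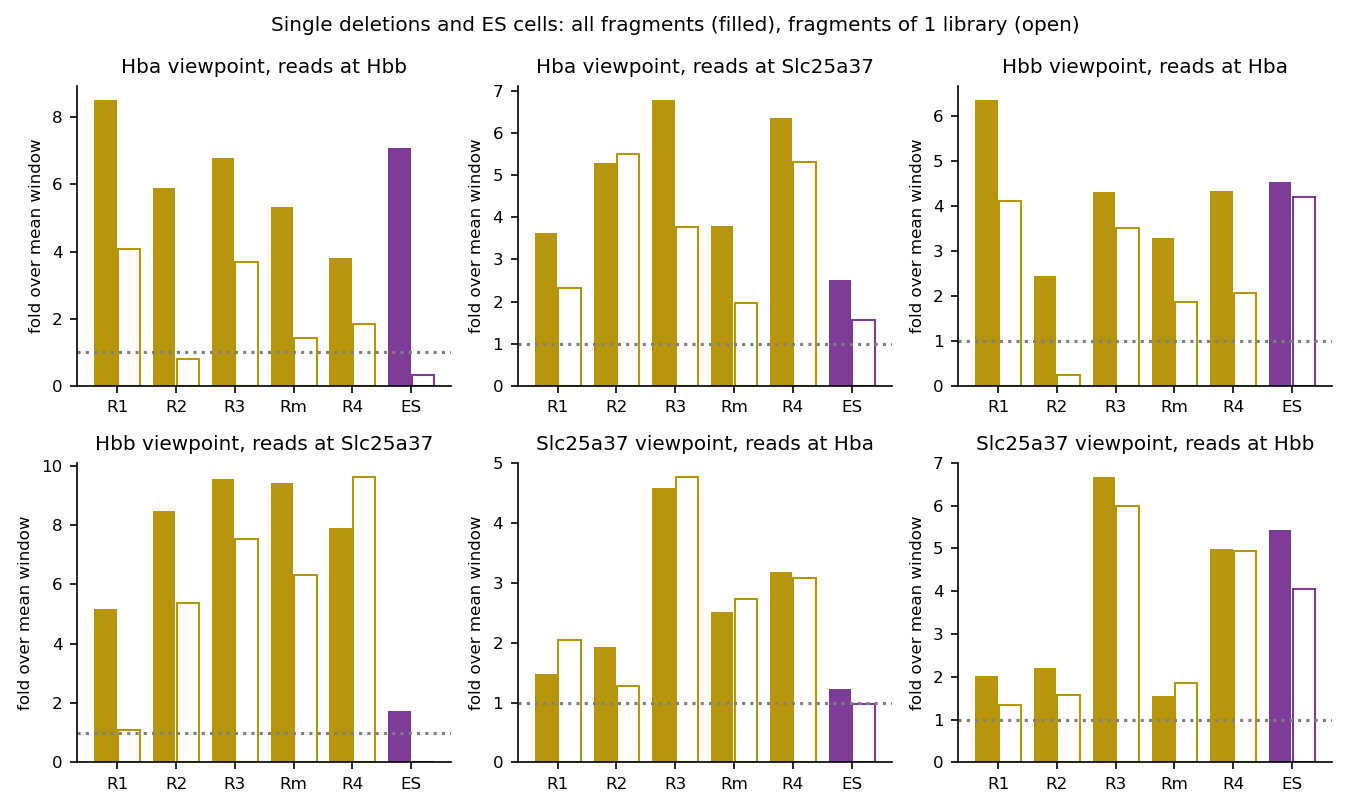
Fold over the mean same-size window (y axis) in the 5 single deletions (gold) and ES cells (purple) for each viewpoint and target locus, with 1 library per bar and no error bar. Filled bars use all fragments, open bars only fragments hit in 1 of these 6 libraries, and the dotted line marks the mean window. For Hbb seen from Hba, the ES bar goes from 7.07 to 0.323.

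The reads of ES cells were also concentrated within the globin loci. At Hbb seen from Hba, ES reads lay at 52.5% in the interval of the embryonic genes and 42.5% in the control region, where the ES cells' own Hbb promoters placed 14846 and 12214 of 46271 reads. At Hba seen from Hbb, the enhancer cluster took 34.8% of 23 ES reads, against 17.1% of the own ES reads there, and the α-globin genes took 8.7%, against 36.3%. With 21 and 19 hit fragments, these ES shares rest on few observations.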

How the data were processed

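The deposited data are 6 tables, 2 for each viewpoint, in which the authors give unscaled read counts for DpnII fragments of mm9. Trim Galore and Bowtie are named per the submitters' processing notes, without versions. In each table with the controls, 7 columns match no sample here and were not used. The sources used here do not state how PCR duplicates were treated. The loci, intervals and rules were chosen with earlier results of these data known.

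Viewpoints were the gaps of at least 1500 bp at the captured promoters. A rate is the reads at a locus, outside fragments within 2 kb of a gap, per 100000 reads on chromosomes other than the viewpoint's, and the comparison is with the other same-size windows of the target chromosome. Libraries were tested against windows by exact sign flips over 9 libraries. Groups were compared with edgeR 4.0.16 (quasi-likelihood, R 4.3.3) in 1 fit per viewpoint over windows with 10 or more reads, with Benjamini-Hochberg adjustment at 0.05, and the edgeR step was tested on simulated data. DESeq2 1.42.0, other library sizes, filters, zones and references, leaving out each library, and a replicate block were alternatives. Other values were computed in Python 3.11.15 (scipy 1.17.1). Named fragments are the leading 3, and named windows the leading 3 other than the locus, of each directed pair by reads over the 9 replicated libraries, and the text prints some of them. Recurrent fragments were named after their values were seen. Same-numbered libraries of the replicated groups had low correlations across windows (−0.135 to 0.084), and the replicate numbers were not used as pairs.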

Additional observations from a re-analysis of the deposited data

How the results depend on the processing

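Of 66 alternatives to the comparisons of a locus with windows that left no library out, 63 kept their direction and side of the threshold. The other 3 were Hbb seen from Hba without fragments hit in 2 or more of the 9 libraries (a difference of 10.9 reads per 100000, adjusted p = 0.164 by the exact permutation test), Hba seen from Hbb under the same omission (22.2, adjusted p = 0.0879) and Hba seen from Hbb per listed fragment (0.0401, adjusted p = 0.108). This omission, counting each fragment once, leaving out deleted elements and summing both directions were chosen after seeing the data. Leaving out single libraries kept the calls except for Hba seen from Hbb, whose difference ran from 21.5 to 33.6 and which did not pass without any 1 of the control or R2R3_KO libraries. Differences between groups, none of which was called at any locus in any setting, reversed in 5 of 192 alternatives: for R2R3_KO against control, Slc25a37 seen from Hba gave 0.0831 with all reads as library size and 0.16 with zones of 5 kb, and Hba seen from Hbb gave 0.11 with all reads. For R2R3_KO against R1R2_KO, Slc25a37 seen from Hbb gave −0.0609 without shared fragments and Hba seen from Slc25a37 gave −0.22 with TMM factors. Among 162 omissions of 1 library, 13 reversed. Their log2 ranges for Slc25a37 seen from Hba were −1.24 to 0.0217 (R1R2_KO against control), −0.32 to 0.16 (R2R3_KO against control) and −0.0592 to 1.20 (between the double deletions). They were −0.64 to 0.34 for Hba seen from Hbb in R2R3_KO against control and −0.17 to 0.73 for Slc25a37 seen from Hbb between the double deletions. Seen from Slc25a37, Hbb ran from −1.04 to 0.31 in R1R2_KO and from −0.0022 to 1.56 in R2R3_KO, both against control, and Hba from −1.27 to 1.55 between the double deletions. The cause of these changes was not tested. On unshared fragments of the 6 unreplicated libraries, the fold was 0.323 for Hbb seen from Hba and 0 for Slc25a37 seen from Hbb in ES cells, and the medians of the single deletions were 1.84, 3.77, 2.08 and 6.32 for Hbb and Slc25a37 seen from Hba and Hba and Slc25a37 seen from Hbb. Counted once per fragment, the enhancer cluster held 39.1% of the hits from Hbb. With 30 or more reads per window, no locus seen from Slc25a37 was left to test.

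Same-numbered libraries correlated at −0.135 to 0.084 and other pairs at −0.081 to 0.177. At the 3 viewpoints, 2, 0 and 2 of 9 libraries matched their own number best. With few reads per window, this check cannot show whether libraries of 1 number were paired. With the replicate block, R1R2_KO against control gave −2.47 for Hba seen from Hbb (edgeR adjusted p = 0.349) and −1.84 for Hbb seen from Hba (edgeR adjusted p = 0.999). It changed no call at a locus, and the 1 window called from Hba in R2R3_KO against control was lost.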
